A study of Mus musculus with 37 samples.

Results

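Uterine NK (uNK) cells that carry the inhibitory receptor NKG2A were compared directly with uNK cells that carry the inhibitory receptors Ly49C or Ly49I. The 2 educated subsets were taken as the sample labels define them, and they make up 15 of the 37 libraries of the series: 9 WT NKG2A+ libraries (Ly49C/I negative) and 6 WT Ly49C/I+ libraries (NKG2A negative). All 15 came from C57BL6 mice without a genetic change or treatment, at day 9.5 to 10.5 of gestation. Live cells positive for CD45 and NKp46 and negative for lineage markers such as CD3, CD4, CD8 and high CD11b had been sorted, cells with both receptors were not collected, and bulk RNA seq was made from each population. The antibody listed for NKG2A also binds NKG2C and NKG2E. WT uneducated cells, which carry neither receptor (9 libraries), and Ly49C/I+ and uneducated cells of NKG2A KO mice of the same strain and days (5 and 8 libraries) are given as levels for reference. No source says whether libraries of one group, or libraries of both groups with the same number, came from different mice, so the p-values measure the spread between libraries. The WT Ly49C/I+ libraries carry 2 numberings in the labels, and are called here by that of the description: libraries 1, 2, 4, 5, 7 and 8 are numbers 1 to 6 in the titles, in this order.

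NK cells of the mouse are educated through inhibitory receptors that bind self MHC class I. NKG2A, encoded by Klrc1, pairs with CD94 and binds the nonclassical molecule Qa-1, whereas the Ly49 family, encoded by the Klra genes in a neighbouring stretch of the NK gene complex on mouse chromosome 6, binds classical MHC class I directly. Ly49C is encoded by Klra3 and Ly49I by Klra9. In the pregnant uterus, NK cells sit with tissue-resident innate lymphoid cells (ILC1), which share NK1.1 and NKp46 with them, and uNK cells are known for cytokines and factors that act on the decidual vessels.

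The genes of the sorted receptors resemble each other, which matters for what a count on them can tell. The coding sequences of Klra3 and Klra9 (798 bases each) share an identical run of 62 bases, from base 594 to 655 of either, and those of Klrc1 and Klrc2 (NKG2C) share the last 100 bases before the stop codon. Both runs, read from the GENCODE M21 transcripts, are shown because a read within them fits either gene:
Klra3 and Klra9: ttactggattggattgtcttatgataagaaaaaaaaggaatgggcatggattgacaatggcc
Klrc1 and Klrc2: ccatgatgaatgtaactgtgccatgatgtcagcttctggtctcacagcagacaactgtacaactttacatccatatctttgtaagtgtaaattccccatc
Of all 50-base stretches of a gene's transcripts, 31.5% in Klra9, 20.7% in Klra3, 38.6% in Klrc1 and 16.3% in Klrc2 also occur in another gene. The 300-base windows around the RefSeq starts of Klra9 and Klra3 (250 bases before and 50 after, GRCm38.p6, minus strand) were nearly alike as well, with 271 of 284 aligned positions identical (95.4%). They are shown because the 2 genes differed between the subsets in opposite directions. Within the aligned part, capitals mark bases that differ from, or have no partner in, the other window, and unaligned ends are in lower case:
Klra9, chr6:130193063-130193362: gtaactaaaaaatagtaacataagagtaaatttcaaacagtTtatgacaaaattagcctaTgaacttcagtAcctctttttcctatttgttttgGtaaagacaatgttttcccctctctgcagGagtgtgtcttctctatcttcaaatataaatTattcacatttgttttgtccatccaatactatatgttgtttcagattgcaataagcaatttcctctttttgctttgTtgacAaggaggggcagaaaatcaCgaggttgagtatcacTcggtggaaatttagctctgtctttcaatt
Klra3, chr6:130337577-130337876: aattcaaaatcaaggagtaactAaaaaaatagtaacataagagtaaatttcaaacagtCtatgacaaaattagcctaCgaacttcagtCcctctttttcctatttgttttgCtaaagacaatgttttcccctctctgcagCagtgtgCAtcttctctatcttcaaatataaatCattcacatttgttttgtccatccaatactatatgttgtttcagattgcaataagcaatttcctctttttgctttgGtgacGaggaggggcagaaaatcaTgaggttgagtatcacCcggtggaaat

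Levels are given as CPM, that is counts scaled to the library's total on genes by TMM. The receptor genes checked the sort. Klrc1 (chr6:129666015-129678973) was at 495 to 753 CPM in the NKG2A+ libraries (median 579) and at 1.28 to 7.8 CPM in the Ly49C/I+ libraries (median 1.84). Klra9 (chr6:130178675-130193112) was at 91.3 to 121 CPM (median 102) in NKG2A+ and at 452 to 731 CPM (median 677) in Ly49C/I+ libraries. No library of one group reached the other group in either gene. Klra3 (chr6:130323289-130337574), the gene of Ly49C, was higher in the cells sorted as negative for Ly49C/I, at 117 to 222 CPM (median 163) against 24.6 to 81.9 CPM (median 57.8). On the log2 scale, NKG2A+ cells differed from Ly49C/I+ cells by 7.63 ± 0.34 (SE) in Klrc1, by −2.61 ± 0.09 in Klra9 and by 1.59 ± 0.20 in Klra3, with adjusted p from edgeR's quasi-likelihood test of 2.14e-11, 9.08e-13 and 0.000284. Klra3 differed by 1.11 with the covariate described below (adjusted p = 0.0617) and passed in the libraries of the narrower range given with it (adjusted p = 0.0192). The counts do not show how many reads of one Ly49 gene were given to another. WT uneducated cells were at 138 ± 50.7 CPM (SD, n = 9) in Klra3 and 70 ± 18.2 CPM in Klra9.

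Reads on genes came to between 13287163 and 18337954 in NKG2A+ and between 15672839 and 17859012 in Ly49C/I+ libraries, with 13982 to 16743 and 14038 to 17859 genes detected. Neither measure differed beyond its spread (two-sided exact permutation tests, adjusted p = 0.884 for both). The share of reads that fell on no gene did differ, at 3.01% to 4.49% in NKG2A+ and 4.16% to 6.83% in Ly49C/I+ libraries (exact permutation p = 0.000799, adjusted p = 0.0032 over 4 measures). NK cell identity markers (8 genes, among them Ncr1, Nkg7, Prf1 and Il2rb) summed to 13432 to 16492 CPM in NKG2A+ and 12658 to 15407 CPM in Ly49C/I+ libraries. Macrophage and dendritic cell markers (14 genes) summed to 58 to 775 and 37 to 709 CPM, and T cell receptor and CD3 genes (19 genes) to 931 to 1323 and 942 to 1146 CPM. B cell markers (9 genes) summed to 381 to 476 and 422 to 628 CPM, nearly all of it from Ighm, the heavy chain of IgM, which was at 422 ± 33.4 and 522 ± 85.2 CPM (SD, n = 9 and 6). Ighm was lower in NKG2A+ cells (−0.32, adjusted p = 0.0492 in edgeR's quasi-likelihood test), a call lost when any one of 13 libraries was left out, with an adjusted p of 0.126 without Ly49C/I+ library 7. The B cell factor Pax5 was at 0 in all 15 libraries. The T cell genes Cd4, Cd8a and Cd5 stayed under 4 CPM in each of the 15 libraries, but the sort had excluded CD4 and CD8 positive cells. Other T cell receptor genes were higher, such as Tcrg-C4 at 28.1 to 119 CPM in NKG2A+ and 0 to 7.12 CPM in Ly49C/I+ libraries. Whether T cells were present was not tested. Prl8a2, a product of the decidua, reached 881 CPM in 1 NKG2A+ library and 83.5 CPM at most in the other group (adjusted p = 0.25).

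Of 9308 genes tested, 254 (2.73%) were differentially expressed (DEG) at an adjusted p under 0.05 in edgeR's quasi-likelihood test. NKG2A+ cells had 122 DEG at a higher level (1.31% of all tested) and 132 at a lower level (1.42%), 26 and 20 of them by more than 1 log2 unit. The median difference over all tested genes was −0.000624. For comparison, 1404 of 9339 genes (15.0%) were called for NKG2A+ and 855 of 9292 (9.20%) for Ly49C/I+ against the same uneducated libraries. In 100 genes (1.07%) no library of one group overlapped the other group, and 48 of them were DEG that were higher and 34 DEG that were lower in NKG2A+ cells. With the share of reads on no gene as a covariate 28 genes were called, 23 of them among the 254, and with the 5 NKG2A+ and 3 Ly49C/I+ libraries in which that share lay between 3.8% and 4.9% there were 84 calls, 60 of them among the 254. Both alternatives were chosen after seeing the data, and all 254 genes kept their direction in both. Of the genes named below, 52 were DEG and 10 of these passed with the covariate, namely Klrc1, Klra9, Klrb1b, Rora, Tmem176a, Tmem176b, Cxcr6, Krt83, Adgrg5 and Cox6a2. With offsets for GC content and length the count was 136, with 36.8% of the calls higher in NKG2A+ cells against 48% without, and without Ly49C/I+ libraries 7, 2 or 5 or NKG2A+ libraries 8 or 2 it was 147, 154, 155, 163 or 168, in this order. Among the DEG named below, those not called with the GC and length offsets included Klra1, Klrb1a, Gpr183, Cxcr4, Ikzf1, Il21r, Gzmc, Ifng, Ifngr1 and Socs2. Their adjusted p then lay between 0.0521 and 0.244.

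**Figure D1:**
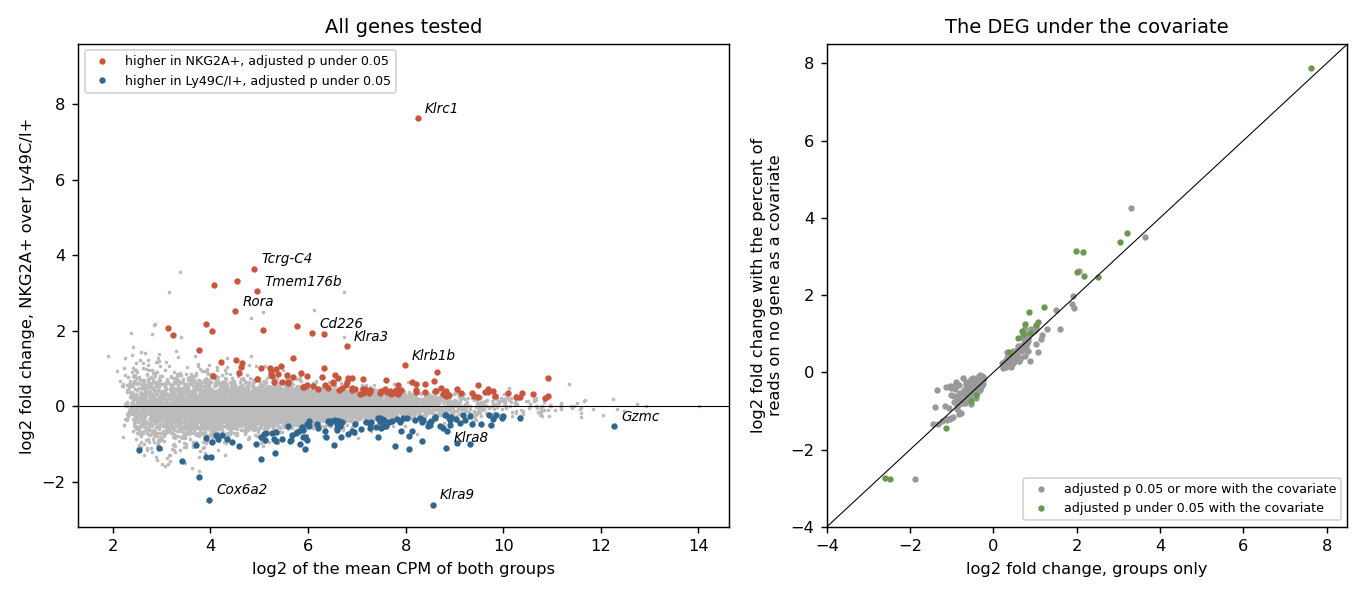
Left, log2 fold change of NKG2A+ over Ly49C/I+ WT uNK cells (y axis) against the log2 of the mean CPM (x axis) for the 9308 genes tested, with the 122 genes higher in NKG2A+ in red, the 132 higher in Ly49C/I+ in blue and the others in grey. Right, log2 fold change of the 254 DEG without (x axis) and with (y axis) the percent of reads on no gene as a covariate, where green points are the 23 genes that still passed and the line marks equal values.

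The Ly49 genes were called in both directions. Of 10 Ly49 genes tested (13 listed), 2 were higher and 4 lower in NKG2A+ cells, against 1.31% and 1.42% of all genes, with a median difference of −0.46 log2 units. The sort itself used the proteins of Klra3 and Klra9. Klra8, which encodes the activating receptor Ly49H, was at 116 to 411 CPM (median 310.1) in NKG2A+ and at 437 to 775 CPM (median 639) in Ly49C/I+ libraries. Of the 50-base stretches of Klra8, 33.1% occur in other genes, Klra9 among them, against 4.68% of those of Klra4. Klra4, which encodes the activating receptor Ly49D, was at 111 to 512 CPM (median 397) against 566 to 805 CPM (median 708). Neither pair of groups overlapped, and in both genes the lowest value belonged to NKG2A+ library 3. The log2 differences were −1.11 ± 0.20 for Klra8 (adjusted p = 0.0066) and −0.97 ± 0.21 for Klra4 (adjusted p = 0.0166), and the pseudogene Klra13-ps differed by −1.07 ± 0.17 (adjusted p = 0.00316). Klra1 (Ly49A, inhibitory) went the other way, at 61.2 to 143 CPM (median 129) against 47.4 to 107 CPM (median 62.6), with overlapping groups and a log2 difference of 0.82 ± 0.18 (adjusted p = 0.0221). Klra1 lost its call without Ly49C/I+ library 2, 4 or 7 (adjusted p = 0.0565, 0.0515 and 0.0641). Klra5, Klra6, Klra7 and Klra14-ps did not pass the test, and with the covariate Klra9 alone of the family did.

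Among the 8 CD94/NKG2 and NKG2D genes, the 1 higher member was Klrc1, whose protein NKG2A the sort itself used. Klrc2, which encodes the activating receptor NKG2C, was the 1 lower member, against 1.42% of all genes. Its levels were 47.3 to 109 CPM (median 68.7) in NKG2A+ and 108 to 179 CPM (median 122) in Ly49C/I+ libraries, so NKG2A+ library 6, at 109 CPM, reached into the other group, and the log2 difference was −0.83 ± 0.16 (adjusted p = 0.00968). Klrd1, which encodes the partner CD94, was at 729.9 and 777 CPM on average and differed by −0.10 ± 0.09 (adjusted p = 0.57). It is transcribed next to the Klrc genes and also pairs with NKG2C.

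Of 7 tested genes of the NKR-P1 and Clec2 families, 2 had a higher level in NKG2A+ cells (1.31% of all genes) and 0 a lower one (1.42%), with a median of 0.21. Klrb1b (NKR-P1B, an inhibitory receptor for the ligand Clr-b, chr6:128813706-128826331) was at 289 to 459 CPM (median 338) against 116 to 182 CPM (median 174), with no overlap and a log2 difference of 1.08 ± 0.12 (adjusted p = 3.86e-05). It kept its call with the covariate (1.30, adjusted p = 0.000224), and 27.2% of its 50-base stretches occur in other genes. Klrb1a (NKR-P1A) was at 81.2 to 124 CPM against 34.9 to 98 CPM, a log2 difference of 0.77 ± 0.18 (adjusted p = 0.0312) that was lost when any one of 6 libraries was left out, with an adjusted p of 0.0786 without Ly49C/I+ library 2. The other 5 tested members of the list, Klrb1c (NK1.1) among them, did not pass. Ncr1, which encodes the NKp46 used in the sort, was at 842 to 984 CPM (median 960.2) against 633 to 819 CPM (median 726), a log2 difference of 0.38 ± 0.06 (adjusted p = 0.00389) without overlap. With GC and length offsets it was 0.25 (adjusted p = 0.0897). Lilrb4a, an inhibitory receptor of the LILR type, was lower in NKG2A+ cells, at 25 to 64.7 CPM (median 29.8) against 59.6 to 94.7 CPM (median 75.9), by −1.02 ± 0.22 (adjusted p = 0.0168). Without Ly49C/I+ library 2 its adjusted p was 0.0501, and 46.7% of its 50-base stretches occur in other genes. Of 19 tested genes of ITAM adaptors and proximal signalling, such as Tyrobp, Fcer1g and Zap70, 0 were called by edgeR's quasi-likelihood test (7 at an unadjusted p under 0.05, 0 called by edgeR's likelihood ratio test and 1 by DESeq2), and their median difference was 0.00.

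**Figure D2:**
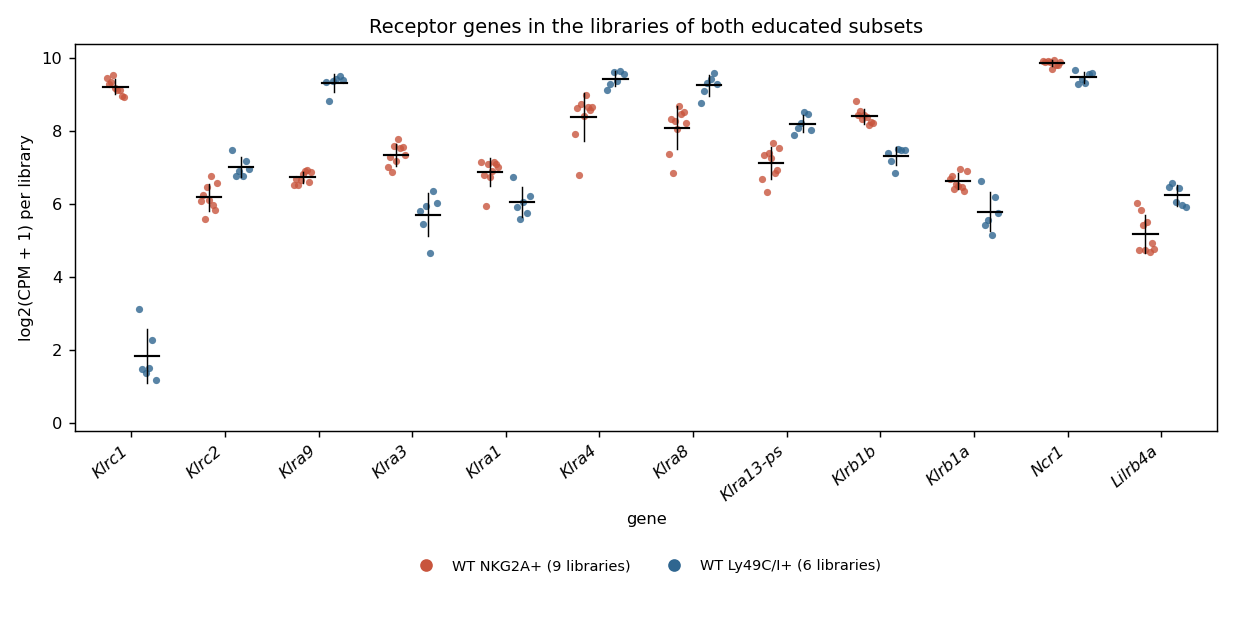
Level of 12 receptor genes as log2(CPM + 1) in each of 9 NKG2A+ (red) and 6 Ly49C/I+ (blue) WT libraries, with horizontal bars at the mean and vertical bars of 1 SD of the log2 values. Klrc1, Klra9, Klra3, Klra4, Klra8, Klra13-ps, Klrb1b and Ncr1 had no overlap between the groups.

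The genes with the largest increases in NKG2A+ cells after Klrc1 included several that are associated with ILC1. From a list of 24 tested ILC1-associated genes, 7 were higher and 2 lower, against 1.31% and 1.42% of all genes, with a median difference of 0.33. The difference was positive in 14 of the 24. In a list of conventional NK genes it was positive in 12 of 19 tested, with a median of 0.34. Rora, which encodes the nuclear receptor RORα needed by several innate lymphoid cells (chr9:68653786-69388246), was at 25.9 to 54.7 CPM (median 39.1) in NKG2A+ and at 4.18 to 10.7 CPM (median 6.68) in Ly49C/I+ libraries. The log2 difference was 2.51 ± 0.23 (adjusted p = 5.78e-06), and it was 2.47 with the covariate (adjusted p = 0.0017). Rora passed the test in each of the 32 alternative settings. Tmem176a and Tmem176b, neighbouring genes of membrane proteins of intracellular vesicles, were at 16.2 to 71.2 CPM (median 21.7) and 22.9 to 127 CPM (median 39.6) in NKG2A+ cells. In Ly49C/I+ cells they were at 2.17 to 4.11 CPM (median 3.41) and 3.99 to 11.4 CPM (median 5.2). Neither gene's groups overlapped, and NKG2A+ libraries 3 and 1 were the highest in both. The log2 differences were 3.20 ± 0.37 (adjusted p = 8.84e-05) and 3.05 ± 0.38 (adjusted p = 0.000284), and both passed with the covariate. The 2 genes lie on opposite strands and their spans overlap, so without strand information reads of the overlap cannot be divided between them. The window around a start of Tmem176a (plus strand) and one around a start of Tmem176b (minus strand, chr6:48841325-48841624) have 219 bases in common, in capitals here:
Tmem176a, chr6:48841406-48841705: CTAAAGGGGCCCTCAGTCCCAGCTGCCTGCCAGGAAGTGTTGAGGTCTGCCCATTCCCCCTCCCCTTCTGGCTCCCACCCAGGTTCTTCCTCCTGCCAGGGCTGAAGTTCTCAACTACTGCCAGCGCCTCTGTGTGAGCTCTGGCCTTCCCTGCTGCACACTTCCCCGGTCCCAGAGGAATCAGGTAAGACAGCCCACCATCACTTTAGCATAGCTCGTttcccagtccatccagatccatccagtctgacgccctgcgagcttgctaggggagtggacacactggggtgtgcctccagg

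Tcrg-C4, a constant segment of the T cell receptor gamma chain, was at 28.1 to 119 CPM (median 41.6) in NKG2A+ and at 0 to 7.12 CPM (median 5.04) in Ly49C/I+ libraries, without overlap. Its log2 difference was 3.64 ± 0.56 (adjusted p = 0.00287). It was 3.49 with the covariate (adjusted p = 0.0712) and 3.87 in the 3.8% to 4.9% libraries (adjusted p = 0.00586). It was the 1 called gene of 11 tested T cell receptor and CD3 genes, against 2.73% of all genes. Cd3e was at 14.5 ± 8.05 and 5.2 ± 4.7 CPM (adjusted p = 0.11) and Trdc at 55.5 ± 9.02 and 68.6 ± 14.2 CPM (SD, n = 9 and 6, adjusted p = 0.245). Cxcr6, a chemokine receptor of resident lymphocytes, was at 23.6 to 196 CPM (median 64) against 6.84 to 31.6 CPM (median 21.2), with overlap, and differed by 2.14 ± 0.45 (adjusted p = 0.0146). It too was highest in NKG2A+ libraries 3 and 1, and passed in all 32 alternative settings. Cd226 (DNAM-1, an activating receptor) and Ikzf2 (the transcription factor Helios) were the other members that were higher. Cd226 was at 49.1 to 174 CPM (median 92.8) against 6.68 to 44.2 CPM (median 27.5), which was a log2 difference of 1.93 ± 0.33 (adjusted p = 0.00444). It was 1.66 with the covariate (adjusted p = 0.187) and 1.97 in the 3.8% to 4.9% libraries (adjusted p = 0.00809). Il7r and Cd200r1, receptors used to tell ILC1 from NK cells, were at 5.09 to 34.6 against 0 to 5.22 CPM and at 5.78 to 30.8 against 0 to 4.7 CPM, but did not pass (adjusted p = 0.0557 and 0.0733). Other listed genes had a difference of the opposite sign. Itga1 (CD49a) was at 167 and 220.3 CPM on average (adjusted p = 0.206), and Il21r and Gzmc were the 2 that were lower, by −0.59 ± 0.13 (adjusted p = 0.023) and −0.53 ± 0.14 (adjusted p = 0.0421). Without Ly49C/I+ library 7 the adjusted p was 0.0731 for Il21r and 0.0892 for Gzmc. Il21r also lost its call without Ly49C/I+ library 5 (0.0619), and Gzmc without any one of 11 libraries. In these bulk samples, more cells of a kind and more RNA per cell cannot be told apart.

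**Figure D3:**
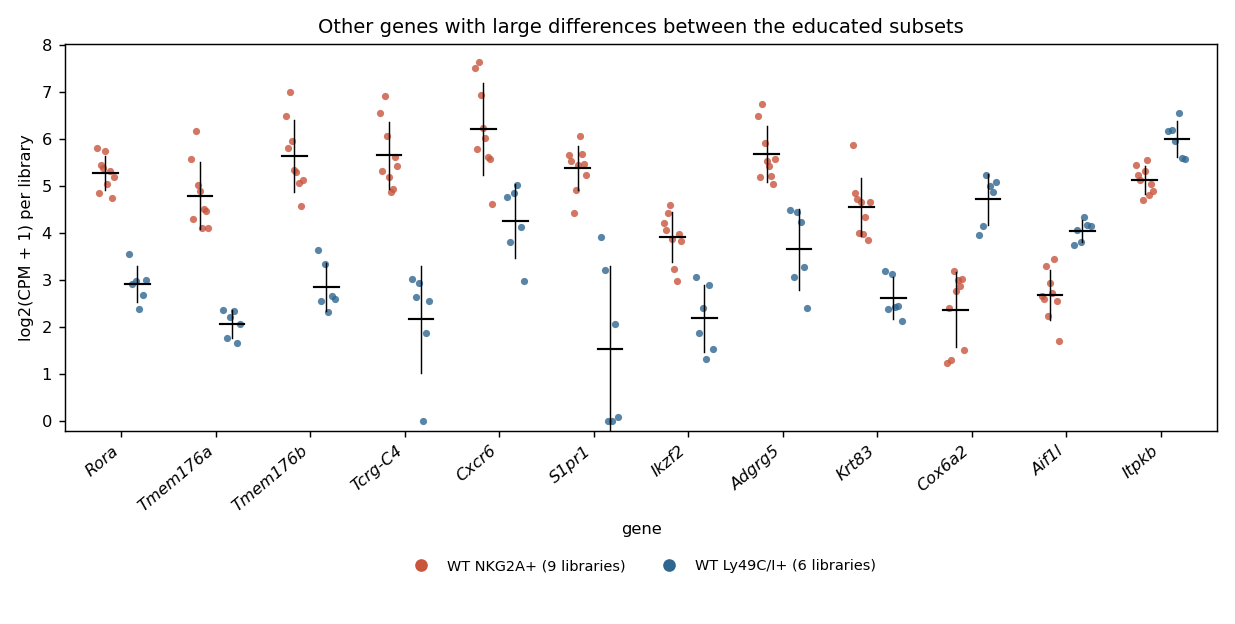
Level of 12 further genes as log2(CPM + 1) in each of 9 NKG2A+ (red) and 6 Ly49C/I+ (blue) WT libraries, with horizontal bars at the mean and vertical bars of 1 SD of the log2 values. Rora, Tmem176a, Tmem176b, Tcrg-C4, S1pr1, Adgrg5, Krt83, Cox6a2, Aif1l and Itpkb had no overlap between the groups, whereas Cxcr6 and Ikzf2 did.

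Of 28 tested transcription factor genes of the NK lineage, 4 were higher (1.31% of all genes) and 0 lower (1.42%) in NKG2A+ cells, with a median of 0.16. Beside Rora these were Ikzf2, at 6.82 to 23.2 CPM (median 14.7) against 1.5 to 7.31 CPM (median 3.49), and Ikzf1 and Lef1. Ikzf1 (Ikaros) differed by 0.47 ± 0.10 (adjusted p = 0.0168) and Lef1, a partner of beta-catenin, by 0.98 ± 0.21 (adjusted p = 0.0173), with an adjusted p of 0.0514 for Lef1 without Ly49C/I+ library 7. Factors that define the NK lineage did not pass the test. Eomes was at 361 and 359 CPM on average, and Tbx21 (T-bet) at 989 and 1036 CPM, with adjusted p of 0.983 and 0.77. Tcf7 was at 249 and 247 CPM, a log2 difference of −0.00 ± 0.13. With the covariate Rora alone of this list passed.

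Receptors that guide migration had mostly higher levels in NKG2A+ cells. Of 15 tested genes of chemokine receptors and trafficking, 14 had a positive difference (median 0.61) and 6 were called, against 1.31% of all genes. S1pr1, the receptor for the egress signal sphingosine 1-phosphate, was at 20.5 to 65.8 CPM (median 42.9) in NKG2A+ libraries. In the Ly49C/I+ libraries it was at 0 in 2, and at most at 14 CPM (median 1.61). Its log2 difference of 3.31 ± 0.83 (adjusted p = 0.0379) passed in 16 of the 32 alternative settings. The call was lost when any one of 9 libraries was left out, with an adjusted p of at most 0.0892. Cxcr4, Cxcr3 and Gpr183 (a receptor for oxysterols) differed by 0.76, 0.75 and 0.64, with adjusted p of 0.0369, 0.0378 and 0.0237. The groups overlapped in each of these 3. Their calls were lost when any one of 10, 9 and 3 libraries was left out, in this order. Without Ly49C/I+ library 2 their adjusted p were 0.0916, 0.0886 and 0.0616, and Cxcr6 alone of the 6 called genes still passed. Ccr2, by contrast, was at 636 and 643 CPM on average (adjusted p = 0.938). Itgb7, the beta 7 chain of the integrins that bind MAdCAM-1 and E-cadherin, was the 1 called gene of 13 tested members of an integrin list, against 2.73% of all genes. It was at 378 to 649 CPM (median 495) against 177 to 434 CPM (median 267) and differed by 0.91 ± 0.17 (adjusted p = 0.0066), by 1.11 with the covariate (adjusted p = 0.072) and by 1.16 in the 3.8% to 4.9% libraries (adjusted p = 0.0144). That list leaves out Itgad, an integrin gene that was called lower in NKG2A+ cells (−1.24, adjusted p = 0.00968).

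Effector genes showed smaller differences. Of 22 tested genes of granzymes and granule proteins, 1 was higher and 2 lower (1.31% and 1.42% of all genes), with a median of −0.01. Serpinb6b, a serpin of the cytosol, was at 399 to 639 CPM (median 448) against 248 to 315 CPM (median 305), by 0.67 ± 0.09 (adjusted p = 0.00127). Cst7, which encodes cystatin F, an inhibitor of the cathepsins that activate granzymes, was at 348 to 486 CPM (median 390.2) against 488 to 666 CPM (median 559.9), by −0.50 ± 0.09 (adjusted p = 0.00444). Both were without overlap. Gzmc was at 2772 to 6066 CPM (median 3794) against 4712 to 6577 CPM (median 6027). Gzmb was at 5499 and 5918 CPM and Prf1 (perforin) at 2016 and 1982 CPM on average, with adjusted p of 0.582 and 0.968. Gzma was at 3131 ± 549.8 and 2065 ± 871 CPM (SD, n = 9 and 6, adjusted p = 0.0765), and its adjusted p was 0.000751 without Ly49C/I+ library 1, the highest of its group at 3772 CPM. Gzmf and Klrg1 differed by −0.45 and −0.21 (adjusted p = 0.276 and 0.221).

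Of 9 tested effector cytokine genes 1 was higher and 1 lower, and of 8 chemokine genes 1 was higher, against 1.31% higher and 1.42% lower of all genes. Ifng was at 98.6 to 164 CPM (median 115) in NKG2A+ and at 39.9 to 108 CPM (median 75) in Ly49C/I+ libraries. Ccl5, a chemokine that attracts T cells and monocytes, was at 1770.0 to 3187 CPM (median 2384) and 1005 to 2078 CPM (median 1426). Both differed by 0.73 (adjusted p = 0.0267 and 0.0168), and their groups overlapped. Tgfb1 was lower in NKG2A+ cells, by −0.59 ± 0.13 (adjusted p = 0.0168), and Ifngr1, a chain of the receptor for interferon gamma, higher by 0.31 ± 0.07 (adjusted p = 0.0283). Ifng lost its call without Ly49C/I+ library 2 or 7 (adjusted p = 0.0686 and 0.0542) and Ifngr1 without Ly49C/I+ library 2 or 4 (0.0712 and 0.0677). With GC and length offsets Ifng and Ifngr1 differed by 0.62 and 0.23 (adjusted p = 0.0628 and 0.244). Xcl1 was at 1190.4 and 1417 CPM on average and Il15 at 8.94 and 7.46 CPM, with adjusted p of 0.273 and 0.776. Il2rb, the shared beta chain for interleukins 2 and 15, was at 3552 and 3736 CPM (adjusted p = 0.48). Socs2, an inhibitor of cytokine signalling, was at 13.3 to 48.5 CPM against 7.46 to 19.6 CPM (1.17 ± 0.29, adjusted p = 0.0335). Its call was lost when any one of 9 libraries was left out, with an adjusted p of at most 0.0836. Stat3 was at 515 to 723 CPM (median 631) against 767 to 1159 CPM (median 832), without overlap, by −0.49 ± 0.09 (adjusted p = 0.00781, or 0.0571 with GC and length offsets). Stat3 overlaps Stat5a on the opposite strand. Kcnj8, the K-ATP channel subunit Kir6.1, was at 18 to 47.3 CPM (median 27) against 17.7 to 52 CPM (median 29), a log2 difference of −0.09 ± 0.24 (adjusted p = 0.885).

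Another 4 genes were higher in NKG2A+ cells without overlap. Krt83, a hair keratin gene that shares 22.1% of its 50-base stretches with other keratin genes, differed by 2.18 ± 0.34 and Adgrg5, an adhesion G protein-coupled receptor, by 2.01 ± 0.37. Gramd3 differed by 1.91 ± 0.31 and BC035044 by 1.15 ± 0.21, with adjusted p between 0.00316 and 0.00708 for these 4, and Krt83 and Adgrg5 also passed with the covariate. Among the genes that were lower, Cox6a2, the muscle form of a subunit of cytochrome c oxidase, was at 1.34 to 8.13 CPM (median 5.78) in NKG2A+ and at 14.4 to 36.8 CPM (median 29.6) in Ly49C/I+ libraries. Its log2 difference was −2.48 ± 0.39 (adjusted p = 0.00325), and it passed in all 32 alternative settings, though it overlaps Itgad on the opposite strand. Itgad was itself lower in NKG2A+ cells (−1.24, adjusted p = 0.00968), and without a known strand setting reads of the overlap cannot be divided between the 2 genes. Aif1l and Tnni1, which encode an actin-binding protein and slow skeletal troponin I, differed by −1.45 ± 0.29 and −0.90 ± 0.16. Gstm4, a glutathione transferase gene, differed by −0.95 ± 0.18, Itpkb, a kinase of inositol trisphosphate, by −0.93 ± 0.17 and Mtln, a mitochondrial micropeptide gene, by −0.87 ± 0.17. The adjusted p of these 5 lay between 0.0066 and 0.0111. With the covariate, Itpkb differed by −0.32 (adjusted p = 0.588) and Lilrb4a by −0.37 (adjusted p = 0.674), and in the 3.8% to 4.9% libraries by −0.47 and −0.41 (adjusted p = 0.34 and 0.481). The noncoding genes Gm26532 (−1.17, adjusted p = 0.0474) and Mir142hg (−0.84, adjusted p = 0.0397) also had no overlap, but lost the call when any one of 14 and 12 libraries was left out, with adjusted p of 0.0947 and 0.0919 without Ly49C/I+ library 7.

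Several programmes had no called member. Of 30 cell cycle genes, 29 had a positive difference (median 0.29) and 0 were called by edgeR's quasi-likelihood test (6 at an unadjusted p under 0.05, 3 called by edgeR's likelihood ratio test and 3 by DESeq2). With the covariate 18 had a positive difference (median 0.12). Of 22 tested genes of cholesterol and fatty acid synthesis, 19 had a positive difference (median 0.24) and 0 were called (3 at an unadjusted p under 0.05, 1 called by edgeR's likelihood ratio test and 1 by DESeq2). Interferon-stimulated genes (27 tested, median −0.00), glycolysis genes (20 tested, median 0.07) and immediate early and dissociation stress genes (22 tested, median 0.06) had no call either, and 1, 0 and 2 by DESeq2. At an unadjusted p under 0.05 there were 6, 2 and 5 genes in these 3 lists, and 1709 genes in the whole table.

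**Figure D4:**
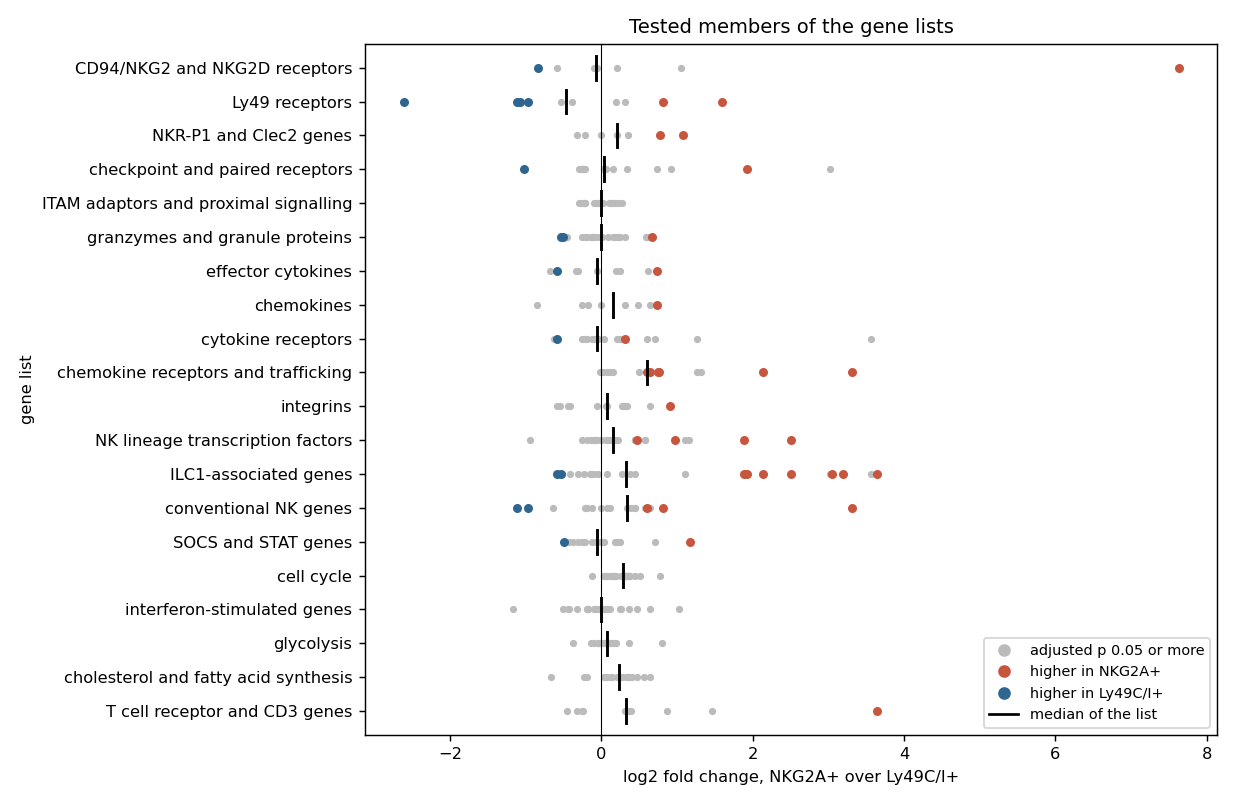
Log2 fold change of NKG2A+ over Ly49C/I+ cells (x axis) for each tested member of 20 gene lists (y axis), red where higher and blue where lower in NKG2A+ at an adjusted p under 0.05, grey otherwise, with a black bar at each list's median. The list of chemokine receptors and trafficking has the highest median, 0.61, and the list of Ly49 receptors the lowest, −0.46.

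The levels in the other groups show on which side of the uneducated cells each difference lay. The comparisons with the uneducated cells share the same 9 control libraries, and are given side by side. The share of reads on no gene was 2.9% to 4.47% in WT uneducated and 4.16% to 6.83% in WT Ly49C/I+ libraries. These comparisons were made without it as a covariate, and its part in them was not tested. Rora was at 7 ± 3.27 CPM (SD, n = 9) in WT uneducated cells and the log2 difference from them was 2.49 in NKG2A+ cells (adjusted p = 1.96e-05), against −0.02 (adjusted p = 0.982) in those sorted for Ly49C/I. Klrb1b likewise differed by 1.33 (adjusted p = 7.2e-09) and 0.25 (adjusted p = 0.167), and Cxcr6 by 2.86 (adjusted p = 2.68e-05) and 0.72 (adjusted p = 0.226). Cox6a2 and Gstm4 were below the uneducated level in NKG2A+ cells (−2.02 and −0.94, adjusted p = 0.00675 and 0.000254) and near it in Ly49C/I+ cells (0.45 and −0.00, with an adjusted p of 0.605 for Cox6a2). Other genes departed from the uneducated level mainly in Ly49C/I+ cells. Itpkb differed by 1.36 there (adjusted p = 0.00185) and by 0.44 in NKG2A+ cells (adjusted p = 0.129), Lef1 by −0.96 (adjusted p = 0.00925) and 0.03 (adjusted p = 0.947), and Klra3 by −1.31 (adjusted p = 0.00593) and 0.29 (adjusted p = 0.331). Lilrb4a was above the uneducated level in both, by 1.71 (adjusted p = 0.000148) in Ly49C/I+ and 0.70 (adjusted p = 0.0331) in NKG2A+ cells. Gzmc was below it in both, by −0.68 (adjusted p = 0.0124) and −1.20 (adjusted p = 3.11e-05).

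Ly49C/I+ cells of NKG2A KO mice, with Klrc1 at 3 ± 0.838 CPM (SD, n = 5), did not always take the level of WT Ly49C/I+ cells. Their Klra9 level was 737 to 1137 CPM, above all WT Ly49C/I+ libraries. Itgb7 was at 404 to 738 CPM and Klrb1b at 240.4 to 365 CPM in them, ranges that overlapped those of WT NKG2A+ cells. For Itgb7 the range also overlapped that of WT Ly49C/I+ cells, and for Klrb1b it lay above it. Rora, at 1.78 to 9.76 CPM, overlapped the range of WT Ly49C/I+ cells instead, and Lef1, at 19.3 to 33 CPM, overlapped that range and the lower end of WT NKG2A+ cells. Tmem176b ranged from 2.41 to 82.2 CPM and Cxcr6 from 14.7 to 131 CPM among the 5 KO libraries. These levels were not tested against the WT groups.

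**Figure D5:**
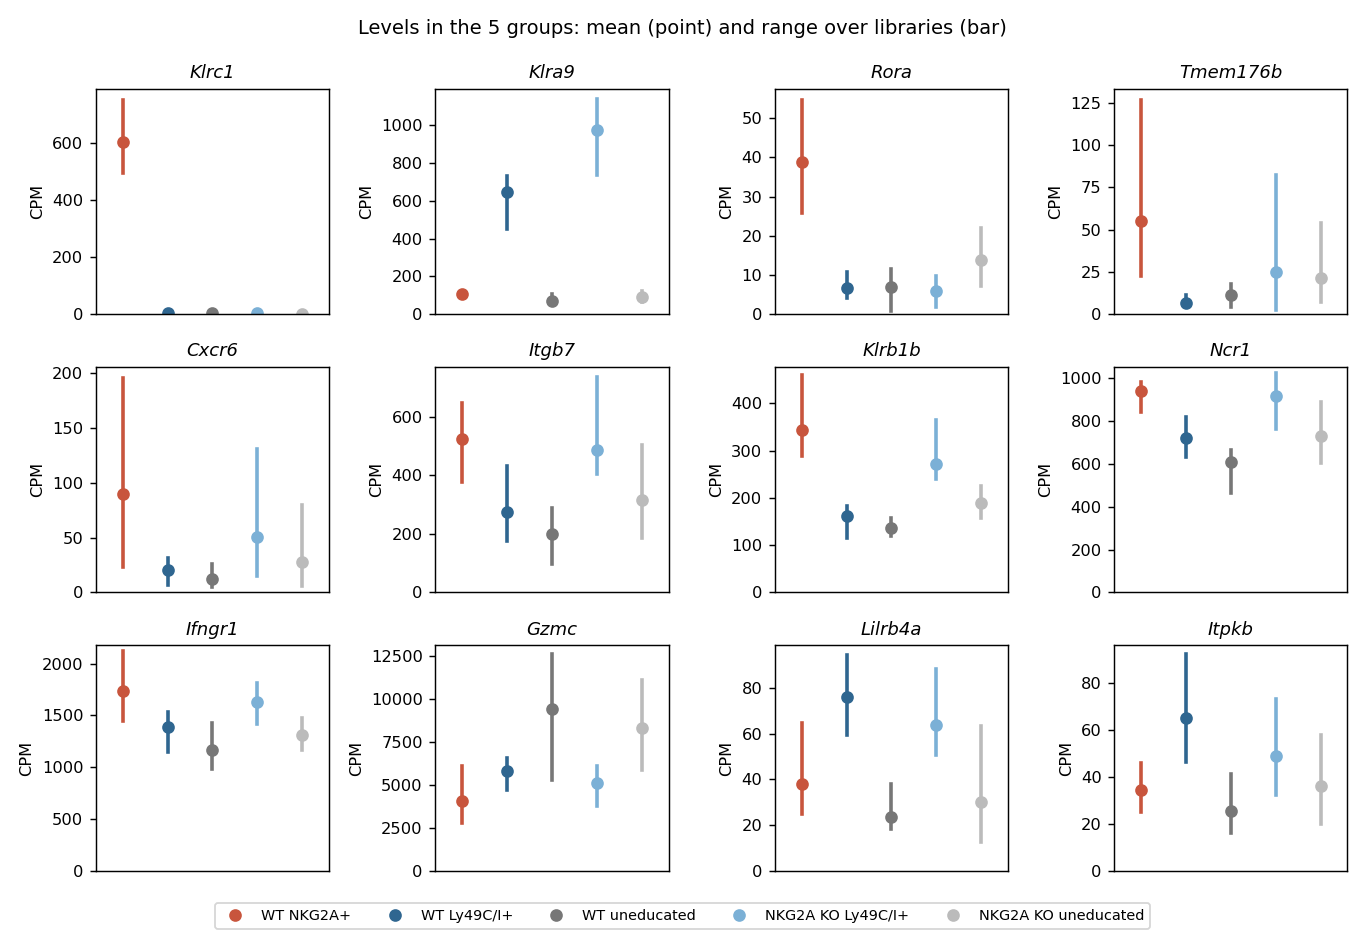
CPM (y axis) of 12 genes in the 5 groups of the series, as the mean (point) and the range over libraries (bar). Klrc1 is high in the 9 WT NKG2A+ libraries only, Rora lies above 25 CPM in these alone, and Itgb7 and Klrb1b of the NKG2A KO Ly49C/I+ libraries overlap the WT NKG2A+ range.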

How the data were processed

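Per the labels and the methods of the study, RNA of sorted uNK cells was extracted with RNeasy Micro columns, amplified with SMART-Seq v4 and made into libraries with Nextera XT. The submitters' processing notes list FastQC (0.11.4), Trim Galore (0.5.0), STAR (2.7.1), edgeR (3.26.5) and R (3.6.1), with the mouse build GRCm38. The authors deposited whole-number counts per Ensembl gene for each library, not normalized. For the counting program and its strand setting, nothing was given in the sources used here, and the GC and length normalization of the study is not part of the deposited counts.

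Of 53700 gene IDs 52147 were matched to a symbol, and rows that name no gene entered neither library sizes nor tests. Among these rows, that of reads on no annotated feature gave the percent of reads on no gene, as a share of all rows. It is given where it bears on a result. Ambiguous and not uniquely aligned reads have rows of their own, which count in the total but not as reads on no gene. Counts were scaled by TMM, genes were kept at 5 CPM or more in a share of 0.5 or more of the libraries, and edgeR's quasi-likelihood test (edgeR 4.0.16, R 4.3.3) was run on the groups compared, with Benjamini-Hochberg adjustment over all genes tested and a threshold of 0.05. DESeq2 (1.42.0) was an alternative. A library's measures were compared by two-sided exact permutation tests. The fits were tested on simulated data. Genes were named by a fixed rule: the sorted receptors, the 12 largest increases and decreases among DEG whose libraries do not overlap, up to 4 called members of each gene list per direction, and genes the study names for uNK cells. Other genes were taken as background from the lists after their values were seen. Some genes that entered the counts are not reported here by name. The members and gene lists were chosen with earlier results of these data known. Promoter windows came from RefSeq (GRCm38.p6), where 41 of 58 named genes had one, and transcripts from GENCODE M21. Intervals cover the spread between libraries only.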

Additional observations from a re-analysis of the deposited data

Results flagged for a closer look

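In 11 of 120 groups of values tested, 1 library lay far from the others of its group by Dixon's test, which chance does in about 1 in 20 groups. Of the NKG2A+ libraries, library 8 had the fewest reads on genes (13287163, the next 16428488). NKG2A+ library 1 was highest in Krt83 (57.7 CPM, the next 27.9) and in Il15 (17.4 CPM, the next 10.6). NKG2A+ library 3 was lowest in Klra1 (61.2 CPM, the next 107) and NKG2A+ library 6 lowest in Gzmf (137 CPM, the next 327).

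Of the Ly49C/I+ libraries, library 2 was lowest in Klra9 (452 CPM, the next 651). Ly49C/I+ library 1 was highest in Gramd3 (77.3 CPM, the next 35.6) and Gzma (3772 CPM, the next 1963). Ly49C/I+ library 5 was highest in Gstm4 (44.5 CPM, the next 29) and Stat3 (1159 CPM, the next 862), and Ly49C/I+ library 4 was highest in Il15 (16.9 CPM, the next 8.17).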

How the results depend on the processing

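Against 254 DEG, the count was 442 with edgeR's likelihood ratio test, 558 with DESeq2, 104 without a filter on low counts, 136 with GC and length offsets, 164 with the 3 WT groups in 1 fit, 28 with the percent of reads on no gene as a covariate, 84 in the libraries with 3.8% to 4.9% of reads on no gene and 146 without NKG2A+ libraries 8 and 9 and Ly49C/I+ library 5. The last 3 were chosen after seeing the data, and the cause of the changes was not tested. Leaving out 1 library gave 147 (without Ly49C/I+ 7) to 306 (without Ly49C/I+ 1), and the other settings without a block 207 to 265. Of the 58 named genes, 52 were called, 33 of them whichever of 15 libraries was left out. Kcnj8 (−0.21 to 0.12 with 1 library left out) changed sign without Ly49C/I+ library 1 (0.12) and Xcl1 with the covariate (0.04), neither being called in the full comparison.

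Libraries of the 2 groups share numbers. Same-numbered libraries deviated together with correlations of 0.018 to 0.13, and 1 of 6 correlated best with its own number, so the numbers were not taken to pair the samples. A replicate block by the numbers of the description gave 301 DEG, 164 of them among the 254, and 136 DEG with GC and length offsets added. With the Ly49C/I+ libraries numbered 1 to 6 as in their titles, the replicate block gave 56.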

Other observations

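Of 78 cytosolic ribosomal protein genes tested, a list chosen after values were seen, 18 were called lower in NKG2A+ cells, against 1.42% of all genes, and 60 did not pass. The difference was negative in 76 of the 78 (median −0.19 log2 units). Those called lower included Rps18 (−0.36, adjusted p = 0.00656 in edgeR's quasi-likelihood test) and Rps19 (−0.36, adjusted p = 0.0108). Of 19 genes of nuclear-retained or intron-rich RNAs, among them Malat1, Neat1 and Clk1, also chosen after values were seen, 17 had a negative difference (median −0.40) and 6 were called lower, against 1.42% of all genes. A list of 24 genes of the actin cytoskeleton was likewise chosen after values were seen. Of these 24, 19 had a positive difference (median 0.12) and 4 were called higher, against 1.31% of all genes. In each of the 3 lists 0 genes were called with the percent of reads on no gene as a covariate. That percent moves with the groups, and its part in these differences was not tested.

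Of 19 tested genes of conventional NK cells, 3 were higher (S1pr1 and Klra1 among them) and 2 lower (Klra4 and Klra8) in NKG2A+ cells, against 1.31% and 1.42% of all genes. The median difference of the list was 0.34. Bcl2l11, which encodes the pro-apoptotic protein BIM, differed by −0.31 (adjusted p = 0.0404). It was the 1 called gene of 11 tested genes of the BCL2 family, against 2.73% of all genes. Its call was lost when any one of 12 libraries was left out, with an adjusted p of 0.0988 without Ly49C/I+ library 5. It passed in 6 of the 32 alternative settings.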
